A study of Mus musculus with 18 samples.

Results

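The circRNAs described here were seen clearly in the unbound RNA of every sample and at most weakly in the RNA pulled down by an antibody against m6A. They were chosen by detection marks that the scanner software gives to each spot. A circRNA probe was taken if its supernatant (Sup) signal was marked as well above background on all 9 arrays and its immunoprecipitate (IP) signal on at most 2 of the 9. Of 14236 circRNA probes, 11664 carried the Sup mark on all 9 arrays and 482 of these met the limit on IP marks. The 300 with the highest mean Sup signal were kept. Both channels chose the members. The IP signal, the bound on the m6A level and the mean Sup level are therefore given below as descriptions without a test. The Sup signal was compared between groups. The rule did not use the groups, but a circRNA that lacked the Sup mark on any array could not be a member. This selection limits what the counts of changes in Sup can show.

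Cortex around the infarct was taken from C57BL/6J mice, 10 weeks old, after distal middle cerebral artery occlusion (MCAO). The 3d group was sampled on day 3 after the operation and the 7d group on day 7. The study also closed both common carotid arteries for 7 minutes right after the MCAO. The sham group had the same surgery without the MCAO, and the labels give no day of sampling for it. Each group had 3 arrays, which the labels call biological replicates, and whether animals were pooled for an array is not given in the sources used here.

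N6-methyladenosine (m6A) is a mark that the METTL3 and METTL14 methyltransferase complex writes on RNA, that FTO and ALKBH5 remove, and that YTH domain proteins such as YTHDF1 and YTHDF3 read. CircRNAs are closed loops made by back-splicing, are abundant in brain and resist the exonuclease RNase R, which was used here to remove linear RNA. In m6A immunoprecipitation, a methylated circRNA is drawn into the IP and its unmethylated copies stay in the Sup, so that IP over IP plus Sup serves as the m6A level.

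On each array the IP was read in Cy5 and the Sup in Cy3. The number of circRNA probes marked per array was 12186 to 13927 in Sup and 11039 to 12323 in IP, and no circRNA spot was saturated. The 3 sham arrays were scanned apart from the others and had a lower local background in the IP channel, with array medians of 15 to 17 against 20 to 22 on the 3d and 7d arrays. The slide and the sham group cannot be told apart. On 3d replicate 3 the Sup values of the 300 circRNAs lay a median of 0.33 (log2) from those of 3d replicate 1 and 0.21 from 3d replicate 2, against 0.11 between 3d replicates 1 and 2. Of 28 genes listed as markers of brain cell types or of the m6A machinery, 1 had an mRNA probe (Mbp, a myelin gene), whose 10 spots were all marked in Sup on every array with array medians of 55.5 to 91.8. The tissue could not otherwise be checked on these arrays. With 3 arrays a group, their number limits the precision.

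The 300 circRNAs were dim in Sup. Their mean Sup signal above local background ran from 29.5 to 292.2 with a median of 35.5, where the median of all circRNAs with the Sup mark on all 9 arrays was 62.1. In 278 of the 300 it was under that median, and in 3 it was over 100. The last member, ASCRP4010307, had a signal of 29.5, and the first one left out by the limit of 300, ASCRP4003176, had 29.4.

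CircRNAs that lacked IP marks became rarer as the Sup signal rose. With the 11664 circRNAs cut into 10 equal bins of Sup signal, 17.4% of the dimmest bin carried the IP mark on at most 2 arrays. The share was 10.6% in bin 2, 5.83% in bin 3 and 2.57% in bin 5. In the 3 brightest bins together, 1 circRNA was left, in bin 9. Among the 2300 circRNAs whose Sup signal lay between the quartiles of the 300 (32.3 and 44.0), 65.3% had the IP mark on all 9 arrays and 6.52% on at most 2.

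**Figure D1:**
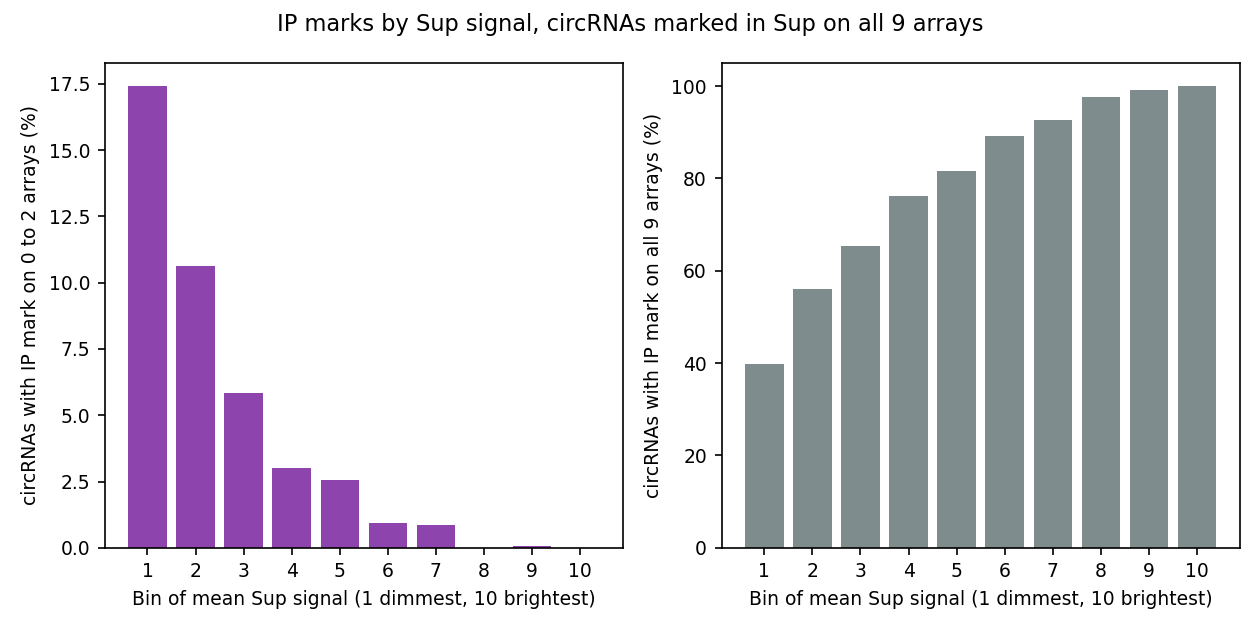
Share of circRNAs (%) with the IP mark on 0 to 2 arrays (left) and on all 9 arrays (right), in 10 bins of the mean Sup signal from dimmest to brightest, over 11664 circRNAs with the Sup mark on all 9 arrays. The left bars fall from 17.4% in bin 1 to 0.858% in bin 7, and the right bars rise from 39.8% to 100%.

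The marks also show what the rule leaves in. Of the 300 circRNAs, 102 had no IP mark, 96 had 1 and 102 had 2. The 3d arrays held 178 of the 300 marks counted over all members, the 7d arrays 54 and the sham arrays 68. The arrays differed widely within a group: 113 members were marked on 3d replicate 1 and 11 on 3d replicate 3, and the sham arrays marked 7 to 44 and the 7d arrays 10 to 31. Of all circRNA probes, 86.6%, 86.5% and 79.8% carried the IP mark on 3d replicates 1, 2 and 3. On the sham arrays 77.5% to 83.4% did, and on the 7d arrays 79.1% to 82.1%. In 68 members the single mark was on a 3d array, and in 29 both marks were.

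The IP signal was weak in these circRNAs, and it was not at 0. The software called it positive and significant, a lower bar than well above background, in 233 to 290 of the 300 on each array. It did so on all 9 arrays for 140 members and on at least 5 arrays for 286. On each array 241 to 290 members lay above the 95th percentile of the 77 negative control spots. The name that best fits them is therefore circRNAs without a clear IP signal, not circRNAs without any.

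Set beside circRNAs of the same Sup range that carried the IP mark on all 9 arrays, the members gave about as much Sup and less IP. Their median Cy3 intensity above local background was 29.3 to 44.0 per array, against 28 to 50 for the marked circRNAs and 10.5 to 15 for the negative control spots. Their median Cy5 intensity was 7 to 12, against 20 to 29 and 2 to 5. In the IP channel they thus lay between the negative controls and the marked circRNAs on every array, as the rule requires of their upper side.

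**Figure D2:**
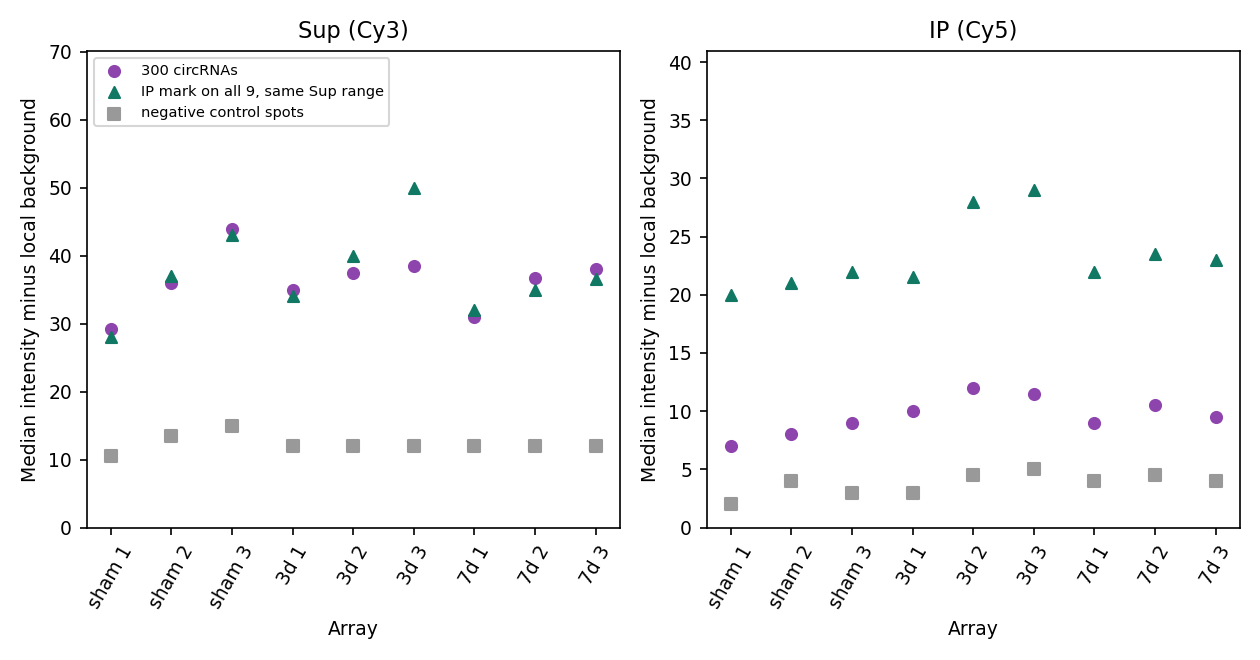
Median intensity above local background on each of the 9 arrays, in the Sup channel (left) and the IP channel (right), for the 300 circRNAs, for circRNAs with the IP mark on all 9 arrays whose Sup lay between the quartiles of the 300, and for the negative control spots. In the right panel the 300 sit between 7 and 12 and the marked circRNAs between 20 and 29.

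The files used here identify a circRNA by its probe only. A circRNA name could be joined through the fold changes and P values listed for 60 entries in the study's tables, which led to 55 probes. None of them was among the 482 circRNAs, so that no member has a host gene here, and the members are called by their probe.

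The named circRNAs nearest to the limit were 7 that had the Sup mark on all 9 arrays and the IP mark on 3, the first count outside the rule, shared by 171 circRNAs in all. They come from exons of Appl1 (an endosomal adaptor), Psme4 (a proteasome activator), Zdhhc20 (a palmitoyltransferase), Adgrb3 (an adhesion receptor of synapses), Ptp4a2 (a phosphatase), Tsc2 (an inhibitor of mTOR signaling) and 9330182L06Rik. Their names are known because the study listed a change in m6A level for them, so they do not stand for the others of that count. The circRNA of Appl1, mmu_circRNA_27268 on chromosome 14, carried its 3 IP marks on the 3d arrays, where Cy5 was 35.5, 37.0 and 41.0 against 22.0, 24.5 and 26.0 on the sham arrays and 28, 34.0 and 31.0 on the 7d arrays. These intensities include the local background, which was lower on the sham arrays. That of Ptp4a2, mmu_circRNA_37703 on chromosome 4, was likewise marked on the 3 arrays of the 3d group. Members with 2 marks lay just inside this limit.

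The member with by far the most Sup was ASCRP4012475. Its Cy3 intensity was 295, 328 and 316 on the sham arrays, 247, 264 and 197.5 on the 3d arrays and 300, 431 and 405 on the 7d arrays, over a local background of 14 to 18.5. Its Cy5 intensity was 20, 24.0 and 23.0 on the sham arrays, 30.0, 27.0 and 29.5 on the 3d arrays and 31.5, 32.5 and 28 on the 7d arrays. The local background was 14, 16.5 and 18 on the sham arrays, 18, 19.5 and 22 on the 3d arrays and 23.0, 22 and 18 on the 7d arrays. It never carried the IP mark, and it was the 1 circRNA of bin 9 mentioned above.

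After background correction and scaling, the Sup of ASCRP4012475 was 12.66 ± 0.09 (log2, SD, n = 3) on the sham arrays, 12.37 ± 0.38 on the 3d arrays and 12.94 ± 0.28 on the 7d arrays, on a scale where the spike-in probes average 14. Its 7d mean was 1.49 times its 3d mean, a log2 difference of 0.58 (standard error 0.20, limma adjusted p = 0.0473), under the fold of 1.5 that a call needed. The lowest 7d array, at 12.63, did not clear the highest 3d array, also at 12.63. This was the 1 member higher in 7d vs. 3d after Benjamini-Hochberg adjustment, a count that was 0 to 3 when 1 array was left out, and it passed in neither comparison with sham (adjusted p = 0.278 and 0.496 with limma).

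The next members by Sup signal were ASCRP4001611, ASCRP4014041, ASCRP4001431 and ASCRP4013978, with mean Cy3 above background of 116.7, 105.1, 95.4 and 90.2. ASCRP4001611 read 124, 115.5 and 128 in Cy3 on the sham arrays, 121.5, 133 and 112.5 on the 3d arrays and 140, 159 and 163 on the 7d arrays, and its Cy5 stayed between 24.0 and 36.0. The 7d arrays were the highest, and the log2 change from sham of 0.31 (standard error 0.14) did not pass (limma adjusted p = 0.335). The other 3 had log2 changes of -0.04 to 0.26 in the 3 comparisons, each with a limma adjusted p of 0.294 or more.

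Sup abundance was compared between groups with limma over the 13657 circRNA probes marked in Sup on at least 3 arrays. The values are log2 Cy3 intensities after normexp background correction with an offset of 50, scaled on spike-in RNA. An offset of this size narrows the changes of dim probes, so that a fold of 1.5 was a high bar for these circRNAs. The call needed a fold change over 1.5 and an unadjusted P under 0.05, and counts after adjustment at any fold are given beside it. In bulk cortex, fewer cells of a type and less RNA per cell cannot be told apart.

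The Sup signal of the 300 circRNAs, summarized by its median on each array, overlapped between the groups. The median was 10.51 ± 0.05 (log2, SD, n = 3) on the sham arrays, 10.63 ± 0.15 on the 3d arrays and 10.54 ± 0.09 on the 7d arrays. Per array it was 10.56, 10.45 and 10.52 on the sham arrays, 10.76, 10.65 and 10.46 on the 3d arrays, and 10.44, 10.56 and 10.63 on the 7d arrays. These shifts turned with the scaling. The median log2 change of the members in 3d vs. sham was 0.10 on the 10 spike-in probes, -0.13 on all spike-in probes and -0.07 with arrays centered on the median circRNA, and in 7d vs. 3d it was -0.04, 0.29 and 0.14. Over all circRNAs tested it was 0.18, -0.05 and 0.01 in 3d vs. sham and -0.19, 0.15 and -0.00 in 7d vs. 3d. With the processed signals the median of the members in 3d vs. sham was 0.29 (0.50 over all), and without 1 array it was 0.02 (3d replicate 1) to 0.19 (3d replicate 3). On the 10 spike-in probes the group mean was highest on the 3d arrays for 175 members, on the 7d arrays for 113 and on the sham arrays for 12. With this scaling 84% of the members were higher in 3d vs. sham, against 87.6% of all tested. In 7d vs. 3d, 40.3% of the members were higher, against 18.4% of all.

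**Figure D3:**
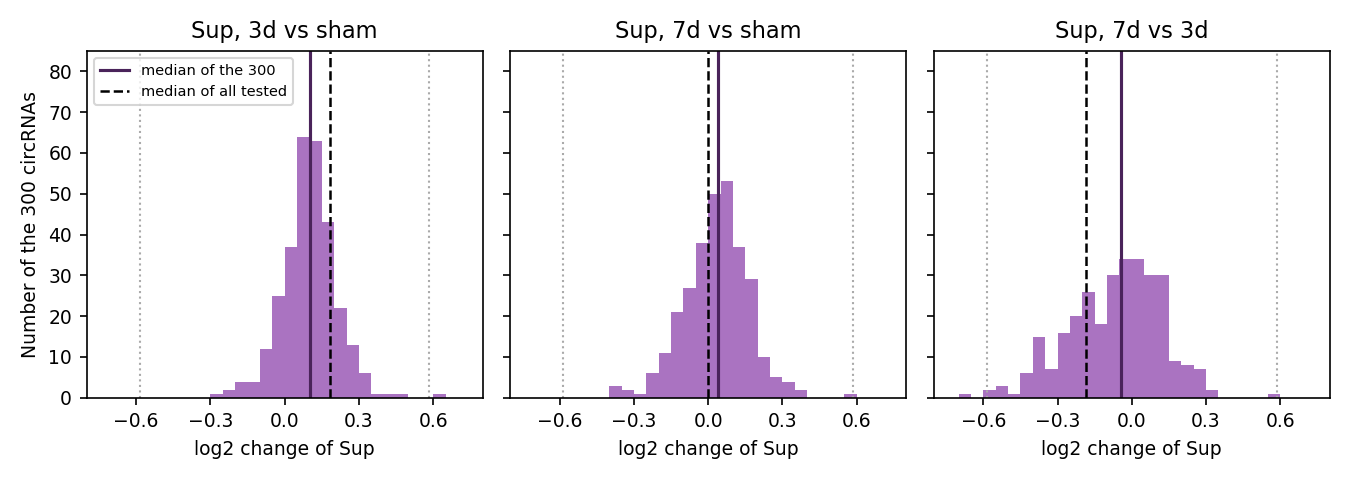
Distribution of the log2 change of Sup over the 300 circRNAs in each comparison. Solid lines mark the median of the 300, dashed lines the median of all 13657 circRNAs tested, and dotted lines a fold of 1.5. Nearly all members lie inside the dotted lines, and with this scaling on 10 spike-in probes the solid line is closer to 0 than the dashed one in 3d vs. sham (0.10 and 0.18) and in 7d vs. 3d (-0.04 and -0.19).

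In 3d vs. sham, 1 of the 300 circRNAs was called higher, where 2.52% of all tested circRNAs were, and 0 were called lower (0.139% of all). The median log2 change was 0.10, against 0.18 over all tested. After adjustment 5 members were higher at any fold (9.87% of all) and 0 lower (0.103% of all). At an unadjusted P under 0.05, 41 members were higher and 0 lower (38.6% and 0.535% of all). The 3 arrays of the 3d group lay above those of the sham group in 47 members (38.9% of all) and below in 1 (0.762% of all). In each of these counts of increases the share of the members was under that of all circRNAs tested. The members had the Sup mark on all 9 arrays, and the circRNAs tested on at least 3. In a fit of only circRNAs with that mark on all 9 arrays, 2.91% were called higher and 0.163% lower.

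The called member was ASCRP4002204. Its Cy3 intensity was 32.5, 40.0 and 42.0 on the sham arrays, 42.0, 44.5 and 156 on the 3d arrays, and 37.0, 42.0 and 40.5 on the 7d arrays. The value of 3d replicate 3 stood far above the other 8, and on that array a negative control spot also reached 114, where the highest such spot on each other array was 30.0 to 39.0. The log2 Sup was 10.86 ± 0.67 (SD, n = 3) on the 3d arrays and 10.22 ± 0.05 on the sham arrays, which is a change of 0.64 (standard error 0.27, unadjusted P = 0.0453, limma adjusted p = 0.121). Without 3d replicate 3 the change was 0.25 and the call was lost. It was also lost without any 1 of the sham arrays (0.62 to 0.66, limma unadjusted P = 0.0747 to 0.0949). The same held on all spike-in probes (0.41), with arrays centered on the median circRNA (0.47) and with quantile normalization (0.42). IP plus Sup (0.53), the methods' t-test and a fit of only the 6 arrays compared lost the call too.

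The 5 members that passed after adjustment, named after their values were seen, were ASCRP4003726, ASCRP4002152, ASCRP4001557, ASCRP4011740 and ASCRP4014145. Their log2 changes in 3d vs. sham were 0.25 to 0.35 with limma adjusted p-values of 0.0384 to 0.0457, and in all 5 the 3d and sham arrays did not overlap. ASCRP4003726 read 10.54, 10.66 and 10.69 on the sham arrays, 11.02, 10.98 and 10.94 on the 3d arrays and 10.54, 10.70 and 10.61 on the 7d arrays. ASCRP4002152 read 10.49, 10.45 and 10.45, then 10.74, 10.72 and 10.78, and 10.35, 10.36 and 10.37. Both were high on the 3d arrays only. In 7d vs. 3d, a comparison that shares the 3d arrays, ASCRP4003726 changed by -0.36 and ASCRP4002152 by -0.39 (limma adjusted p = 0.00960 and 0.00909). When any 1 of the 3d arrays, sham replicate 1 or sham replicate 2 was left out, the count of 5 became 0 (0% of all tested in each), and without sham replicate 3 it became 17 (16.5% of all). With the replicate number as a block it was 1 (5.7% of all).

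In 7d vs. sham, 1 member was called higher (0.395% of all tested) and 0 were called lower (2.51% of all). In the fit of only circRNAs with the Sup mark on all 9 arrays, the shares called were 0.463% and 2.9%. None passed after adjustment in either direction, of the members or of all circRNAs tested with limma. At an unadjusted P under 0.05, 6 members were higher and 9 lower (4.38% and 11.2% of all). The median log2 change was 0.04 over the members and -0.00 over all. The 7d arrays did not overlap the sham arrays in 19 members upward (8.51% of all) and in 19 downward (15.4% of all).

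The called member was ASCRP4001765. Its Cy3 intensity was 48.0, 81.0 and 78.0 on the sham arrays, 112, 104 and 79.5 on the 3d arrays and 121, 129 and 84.0 on the 7d arrays. All 7d arrays lay above all sham arrays, and the 3d arrays overlapped both. The log2 Sup was 11.38 ± 0.24 (SD, n = 3) on the 7d arrays and 10.79 ± 0.18 on the sham arrays, which is a change of 0.59 (standard error 0.21, unadjusted P = 0.0215, limma adjusted p = 0.256). Its fold lay at the threshold, and the call was lost without 7d replicate 1 (0.54), 7d replicate 2 (0.50) or sham replicate 1 (0.49). For IP plus Sup (0.48) it was lost too.

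The 7d and 3d arrays shared a slide, on which the groups took different rows. In 7d vs. 3d, 0 members were called higher (1.2% of all tested) and 1 lower (12.2% of all). In the fit of only circRNAs with the Sup mark on all 9 arrays, the shares called were 1.38% and 14.2%. After adjustment 48 members were lower at any fold (35.7% of all) and 1 was higher (1.4% of all), ASCRP4012475 as given above. The log2 changes of the 48 were -0.67 to -0.19 with a median of -0.35, and in all 48 the 3d and 7d arrays did not overlap. At an unadjusted P under 0.05, 3 members were higher (3.2% of all) and 67 lower (46.7% of all). The arrays lay apart downward in 72 members (50.5% of all) and upward in 3 (2.72% of all). The median log2 change was -0.04 over the members and -0.19 over all, and 179 of the 300 were lower. The other 121 members (40.3%) were higher, against 18.4% of all tested.

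The called decrease was that of ASCRP4006831. Its Cy3 intensity was 97.0, 86.5 and 107.5 on the 3d arrays, 50, 65.0 and 50.5 on the 7d arrays and 57.0, 67.0 and 112 on the sham arrays. The 3d and 7d arrays lay apart, and the sham arrays reached from one to the other. The log2 Sup was 11.26 ± 0.17 (SD, n = 3) on the 3d arrays and 10.58 ± 0.17 on the 7d arrays, which is a change of -0.67 (standard error 0.16, limma adjusted p = 0.0146). The call was lost on all spike-in probes (-0.34), with arrays centered on the median circRNA (-0.49), with quantile normalization (-0.49), for IP plus Sup (-0.51), with 4 spots of 7d replicate 3 that lay under a bright local background kept in the normexp fit (-0.46) and without 3d replicate 1 (-0.57). The next largest decreases after adjustment, named after their values were seen, were ASCRP4011796 at -0.57 and ASCRP4002670 at -0.54, the latter with a limma adjusted p = 0.00909.

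The count of 48 depended on single arrays, on the scaling and on the background correction. Without 7d replicate 1, 2 or 3 it was 16, 23 and 31 (14.8%, 18.3% and 29.9% of all), and without 3d replicate 1, 2 or 3 it was 25, 26 and 62 (29%, 23% and 32.8% of all). Scaled on all spike-in probes it was 0 (0% of all). With arrays centered on the median circRNA it was 3 (3.3% of all), while 12 members were then higher (4.3% of all), and with quantile normalization it was 12 (11% of all), with 52 higher (11.2% of all). With those 4 spots kept it was 0 (10.5% of all), for IP plus Sup 9 (13.9% of all) and with the methods' t-test 28 (22% of all). With no offset, no background correction or the processed signals, all on the 10 spike-in probes, it was 48, 52 and 68 (27.1%, 36.6% and 42.9% of all).

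**Figure D4:**
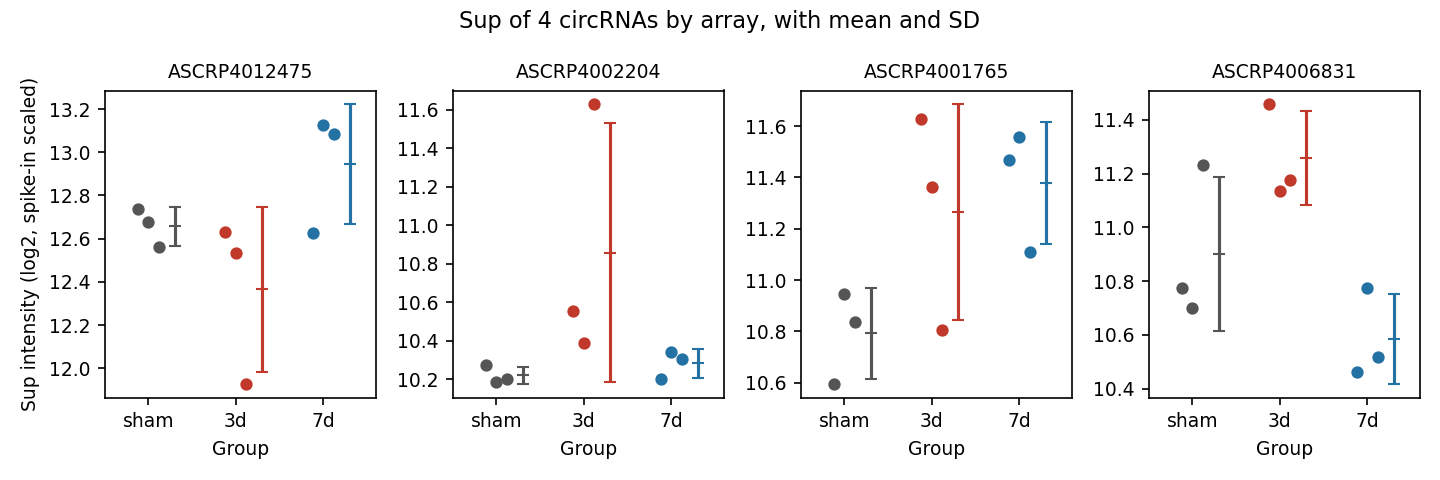
Sup intensity (log2, spike-in scaled) of 4 of the circRNAs on each array, with the mean and SD of each group (n = 3) beside the points. ASCRP4002204 is high on 1 array of the 3d group, at 11.63, and in ASCRP4006831 the 3d arrays (11.14 to 11.46) lie above the 7d arrays (10.46 to 10.77).

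The upper bound on the m6A level was taken per array. The IP value of a circRNA was its own background-corrected Cy5 value or, where that was lower, the lowest Cy5 value of any circRNA with the IP mark on that array. The bound is this IP value over itself plus Sup, in percent, with both channels scaled on spike-in RNA and no offset. Between 5 and 74 of the 300 circRNAs took the lowest marked value on an array, and the others took their own. For those others the bound equals the measured level and holds no margin for noise. The bound limits IP over IP plus Sup as measured, and how much methylated RNA stayed in the Sup was not tested.

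The bound depended on the processing, and the group mean of the median over the 300 ran from 12.1% (sham, plain subtraction) to 33.7% (3d, within-array loess) over the alternatives tried. The median bound over the 300 was 14.6%, 14.9% and 13.1% on the sham arrays, 16.2%, 16.1% and 18.7% on the 3d arrays, and 17.4%, 15.2% and 15.6% on the 7d arrays. The group means were 14.2% ± 0.969 (SD, n = 3) on the sham arrays, 17% ± 1.44 on the 3d arrays and 16.1% ± 1.14 on the 7d arrays. The sham arrays lay below all others here, and they also had the lower IP background of their slide, whose part in the difference was not tested. This order did not hold throughout, since the sham mean was above the 3d mean with the processed signals (20.01% and 17.5%) and above the 7d mean with within-array loess (29.7% and 29.0%). For the 9305 circRNAs marked in both channels on all 9 arrays the median level was 32.1%, 28.9% and 26.2% on the sham arrays, 28.4%, 28.8% and 26.6% on the 3d arrays, and 32.9%, 31.5% and 32.0% on the 7d arrays. Of those, 10.6% to 21.2% had a level under the median bound of the 300 on the same array, so that a low level was not limited to circRNAs without IP marks.

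**Figure D5:**
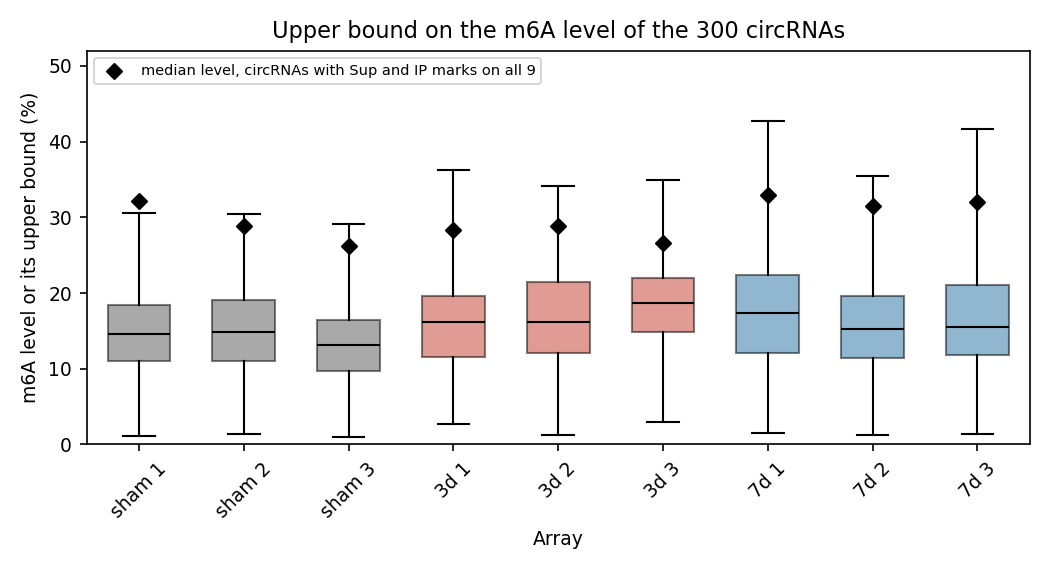
Upper bound on the m6A level (%) of the 300 circRNAs on each array, with boxes for the quartiles, a line for the median and whiskers to the lowest and highest member. Diamonds give the median level of the 9305 circRNAs with Sup and IP marks on all 9 arrays, and they lie between 26.2% and 32.9%, above the box of the 300 on every array.

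The bound, averaged over the 3 arrays of a group, reached at most 26.1% for sham, 31.5% for 3d and 32.6% for 7d. It was under 20% in 266 members on the sham arrays, 225 on the 3d arrays and 208 on the 7d arrays. On single arrays the highest bound of any member was 42.8%, on 7d replicate 1. The bound was tighter where there was more Sup, as its construction gives. In the brightest 100 members, with a Sup signal of 39.6 or more, the median was 9.92% on the sham arrays, 12.3% on the 3d arrays and 11.1% on the 7d arrays, and in the dimmest 100 it was 17.8%, 19.9% and 20.8%.

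The tightest bounds belonged to ASCRP4012475, ASCRP4001611 and ASCRP4013978. For ASCRP4012475 the bound was 1.13%, 1.32% and 1.02% on the sham arrays, 2.69%, 1.31% and 2.96% on the 3d arrays and 1.58%, 1.26% and 1.41% on the 7d arrays. For ASCRP4001611 the means were 4.81% ± 0.917, 5.83% ± 2.20 and 4.22% ± 0.318 (SD, n = 3) for sham, 3d and 7d. For ASCRP4013978 they were 5.25% ± 0.473, 7.35% ± 1.66 and 5.04% ± 2.66. These 3 circRNAs had a mean Sup signal of 90.2 or more.

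Of the 3 members called for a change in Sup, ASCRP4002204 had a bound of 25.7% ± 2.06 (SD, n = 3) for sham, 20.4% ± 7.90 for 3d and 22.1% ± 2.42 for 7d. For ASCRP4001765 the bound was 12.6% ± 4.12 (SD, n = 3) on the sham arrays, 8.55% ± 6.07 on the 3d arrays, and 4.12%, 3.96% and 7.47% on the single 7d arrays. For ASCRP4006831 it was 7.72% ± 3.74, 9.78% ± 3.39 and 12.4% ± 2.68 for sham, 3d and 7d. A bound falls as Sup rises by its construction, and these values were not compared between groups. At the end of the list, ASCRP4010307 had 16.5% ± 6.44, 19.2% ± 5.67 and 18.9% ± 0.570. Of the named circRNAs just outside, that of Appl1 had a mean of 12.5%, 24.6% and 18.1%, and that of Zdhhc20, mmu_circRNA_27622 on chromosome 14, had 11% ± 1.70, 8.91% ± 3.45 and 7.17% ± 1.52.

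On the array surface the 300 probes were not spread evenly. With rows and columns each cut into 4 equal bands, the last band of rows held 31.7% of them and 24.9% of all circRNA probes, and the first band of columns held 32% and 24.4%. The part of position on the slide in the weak IP signal was not tested.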

How the data were processed

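RNA from peri-infarct cortex was split by m6A immunoprecipitation into IP (Cy5) and Sup (Cy3), treated with RNase R and hybridized to circRNA arrays. Per the labels, the authors read the images with Agilent Feature Extraction 11.0.1.1, and they deposited the intensity of each spot and a table of log2 values scaled on spike-in RNA. The IP and Sup files of an array were identical in 9 of 9 arrays, so each array was read once. The authors' table lists 12251 probes, 2 of them among the 300, and was recovered to 5.57e-10 (log2) with 10 of the 102 spike-in probes, which were then used for scaling. The median Cy3 and Cy5 intensities were corrected with normexp (limma 3.58.1, R 4.3.3). On 7d replicate 3, 4 neighboring circRNA spots in rows 93 to 96, none of a member, lay more than 25 under their local background and distorted the usual normexp fit in both channels, so they were left out of it. This choice was made after seeing the data. Spots marked as outliers were left out. Sup was tested with lmFit and eBayes over all 9 arrays with Benjamini-Hochberg adjustment over 13657 probes, and the code was tested on simulated data. Replicate numbers are those of the titles, and the descriptions of 7d replicates 2 and 3 and sham replicate 3 give other numbers. Arrays of the same number deviated together in 3d vs. sham (correlations 0.54, 0.22 and 0.54), which is a hint from the data and not from the labels, although 3d replicate 2 correlated more with sham replicate 1 (0.60), and not in 7d vs. sham or 7d vs. 3d (-0.39 to -0.02). P-values measure the spread between these arrays. Members and lists were chosen with earlier results of these data known. Named members are the 5 with the highest Sup, the 3 with the lowest bound, up to 3 called changes per direction and comparison with the groups apart, and those next to a limit. Names were joined where the fold and P of a probe, recomputed from the processed signals, matched a listed entry within relative tolerances of 1e-04 and 0.001. Figures were drawn with matplotlib 3.10.9.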

Additional observations from a re-analysis of the deposited data

Results flagged for a closer look

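The change of Sup from sham differed between 3 and 7 days for ASCRP4006831, by -0.67 on the log2 scale (7d minus 3d, standard error 0.16, limma adjusted p = 0.0146, Benjamini-Hochberg over 13657 circRNAs). This is the same result as its decrease in 7d vs. 3d given above, since the sham group cancels out. The change of ASCRP4006831 from sham was 0.35 at 3 days and -0.32 at 7 days, and neither passed alone (limma adjusted p = 0.129 and 0.367). Sham replicate 3, at 11.23, was as high as the 3d arrays, while sham replicates 1 and 2, at 10.77 and 10.70, were near the 7d arrays. Over the alternatives the difference was -1.59 to -0.34, always in this direction, and it fell short of a fold of 1.5 on all spike-in probes, with arrays centered on the median circRNA, with quantile normalization, for IP plus Sup, with the 4 spots of 7d replicate 3 kept and without 3d replicate 1.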

How the results depend on the processing

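The counts of members called in Sup were small and moved with the processing, and the cause was not tested. They are given as higher and lower, first for 3d against sham, then for 7d against sham and last for 7d against 3d, and were 1 and 0, 1 and 0, and 0 and 1. With no offset in normexp they were 9 and 2, 5 and 19, and 20 and 53, against 13.6% and 0.71%, 3.49% and 9.9%, and 4.61% and 29.8% of all tested circRNAs. With no background correction they were 2 and 0, 2 and 0, and 1 and 6, and with the processed signals 46 and 0, 12 and 23, and 7 and 76, against 38.4% and 0.447%, 5.5% and 10.3%, and 2.27% and 48.3% of all. Scaled on all spike-in probes (99 could be used) they were 0 and 0, 1 and 0, and 10 and 0. The shares of all were 0.93% and 0.813%, 1% and 1.72%, and 6.25% and 4.26%. With arrays centered on the median circRNA or quantile normalization they were 0 and 0, 1 and 0, and 1 and 0. IP plus Sup gave 0 throughout, against 1.47% and 0.198%, 0.249% and 2.19%, and 0.849% and 6.55% of all. The deposited values cover 2 members and gave 0 but for 1 higher in 7d vs. sham (6.55% of all). The methods' t-test and a fit of only the 6 arrays compared gave 0 higher in 3d vs. sham (0.762% and 1.79% of all). Adjusted P values gave 0 in 3d vs. sham (0.703% higher and 0.022% lower of all) and 0 in 7d vs. sham (0% of all). With outlier marks ignored, 1 was higher in 7d vs. 3d. Keeping the 4 spots of 7d replicate 3, as the usual normexp fit does, gave 0 lower in 7d vs. 3d (12.6% of all). Leaving them out was the choice made after seeing the data. Leaving out 1 array gave 0 to 1 higher in each comparison, 0 lower in 3d vs. sham and 7d vs. sham, and 1 to 3 lower in 7d vs. 3d. With the replicate block the counts called were 1 and 0, 1 and 0, and 0 and 1. The shares of all were 3.24% and 0.0952%, 0.41% and 3.05%, and 1.11% and 12.7%. The members that passed after adjustment fell from 5 to 1 in 3d vs. sham (5.7% of all). In 7d vs. 3d they fell from 48 to 31 lower (33.2% of all) and from 1 to 0 higher (0.93% of all). Members that passed after adjustment numbered 0 to 18 higher in 3d vs. sham, and 0 to 52 higher and 0 to 68 lower in 7d vs. 3d. The 18 and the 68 came with the processed signals, where the shares of all were 25% and 42.9%. The 52 came with quantile normalization, where the share was 11.2%. A slide block was not run, since no slide held the sham group with another.

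The median bound in the 3d, 7d and sham groups was 17%, 16.1% and 14.2%. It was 31.0%, 33.1% and 30.4% with an offset of 50, which draws every level to the middle, 25.9%, 23.7% and 23.6% with no scaling between channels, and 28.5%, 21.1% and 20.1% on all spike-in probes. It was 33.7%, 29.0% and 29.7% with loess and Aquantile, and 22.1%, 22.4% and 20% with the 5th percentile as the lowest IP value. The processed signals gave 17.5% for 3d, 21.2% for 7d and 20.01% for sham, and plain subtraction 12.1% for sham. Keeping the 4 spots, as the usual normexp fit does, gave 24.7% for 7d. Subtracting the median negative control, an alternative chosen after seeing the data, gave 14.9% for 3d and 13.2% for sham. Leaving out 1 array gave 16.2% to 17.4%, 15.4% to 16.5% and 13.8% to 14.7%. The number of circRNAs that met the rule was 482, 171 with no IP mark allowed and 507 to 616 without 1 array.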
